A study of Mus musculus with 21 samples.

Results

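Fibroblasts from lungs of mice given silica (SiO2) were compared with fibroblasts from lungs of mice given bleomycin (BLM), both taken 63 days after a single oropharyngeal aspiration. By their labels, 6 of the 21 libraries of the series belonged to these groups, 3 of SiO2 and 3 of BLM, and all 23204 deposited gene symbols were read. SiO2 mice had received 400 mg/kg of crystalline silica and BLM mice 2 mg/kg of bleomycin sulfate, each suspended or dissolved in saline, and untreated mice had received neither. The mice of all groups were female, of the C57BL/6 strain, and carried the Col1a2-GFP transgene, and the labels gave no age. Cells negative for CD45, CD31, EpCAM, CD146, Ter119 and propidium iodide and positive for the transgene were sorted at 10000 cells per library, so only cells in which the collagen reporter was on could enter. Whether the 3 libraries of a group came from separate mice is not stated in the labels, so the p-values speak only of spread among libraries, which may be technical. The assay was 3′SAGE-seq, in which a short tag near the 3′ end of each amplified polyadenylated RNA is sequenced and counted for its gene.

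Crystalline silica particles persist in the lung and are taken up by macrophages, whereas bleomycin is a drug that breaks DNA strands and is cleared. The series describes silica as the progressive and bleomycin as the reversible model of lung fibrosis, and day 63 was its last time point. Fibroblasts are the main producers of the collagens and other proteins of the lung matrix. They also react to inflammatory cytokines, through the transcription factor NF-kB, and to interferons, by making chemokines, acute-phase proteins and proteins of antigen presentation.

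The 6 libraries held 3303039 to 4477283 counts, and ribosomal RNA entries took 0.290% to 0.394% of them. Levels are given in CPM, counts scaled to a common library size, group levels as mean ± SD of 3 libraries, and differences as log2 fold change of SiO2 over BLM ± SE. "Higher", "lower" and "passed" refer to an adjusted p under 0.05 in edgeR's quasi-likelihood test, adjusted by Benjamini and Hochberg's method over all 11669 tested genes. Fibroblast genes were abundant in both groups. Vimentin, Vim, averaged 12280 ± 515 CPM in SiO2 and 12320 ± 1192 CPM in BLM, and decorin, Dcn, 9575 ± 1237 CPM in SiO2 and 11636 ± 699 CPM in BLM. Their differences did not pass, nor did that of the platelet-derived growth factor receptor Pdgfra (-0.12 ± 0.11, adjusted p = 0.54). Of all 12 fibroblast markers tested, however, 6 were higher in SiO2, 2 were lower and 4 did not pass. The 6 were Col1a1, Col1a2, Col3a1, Bgn, Fn1 and Thy1, and the 2 were Lum and Tcf21, and whichever of the 6 libraries was left out, 1 of these 2 passed. The summed fibroblast markers were at 43342, 41038 and 43840 CPM in SiO2 and at 34936, 39545 and 37549 CPM in BLM. They did not overlap (two-sided exact permutation p = 0.1). The mean sum was 5396 CPM higher in SiO2, but it includes the collagen genes. Col3a1 averaged 6955 CPM in SiO2 and 3141 CPM in BLM, and Col1a2 3325 CPM in SiO2 and 1622 CPM in BLM. Col1a1 averaged 1228 CPM in SiO2 and 565 CPM in BLM. The sum therefore repeats the collagen difference and is not a measure of fibroblast content. Defining markers of the depleted cells were at or near 0. The 3 SiO2 libraries together held 5 counts of Ptprc (CD45) and the 3 BLM libraries 2. Epcam had 0 counts in SiO2 and 4 in BLM, and Pecam1 (CD31) 0 in SiO2 and 2 in BLM. Among other endothelial genes, Cdh5 had 3 counts in SiO2 and 0 in BLM, and Vwf 0 in SiO2 and 2 in BLM. Mcam (CD146) averaged 0.223 CPM in SiO2 and was at 0 in BLM.

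At day 63, 1816 genes (15.6% of those tested) differed between SiO2 and BLM, of which 1065 (9.13%) were higher and 751 (6.44%) lower in SiO2. Each list count below is to be read beside these 2 shares. The median difference over all tested genes was 0.00 on the log2 scale, with quartiles of -0.26 and 0.26. The large differences lay mostly on one side, as 194 genes were at least 4-fold higher and 19 at least 4-fold lower in SiO2. In 1958 genes (16.8%) all 3 SiO2 libraries lay above all 3 BLM libraries, and in 1688 genes (14.5%) all lay below. In these bulk samples, fewer cells of a kind and less RNA per cell cannot be told apart.

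**Figure D1:**
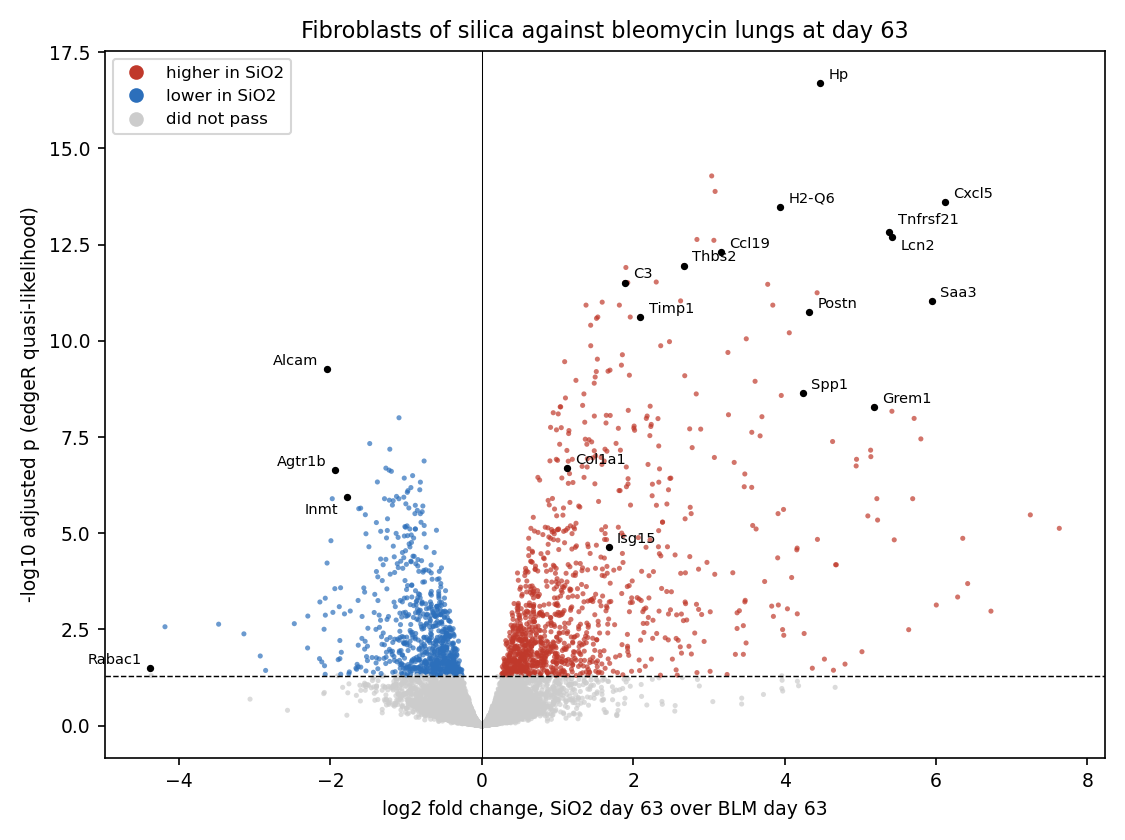
Each point is 1 of the 11669 tested genes, with the log2 fold change of SiO2 day 63 over BLM day 63 on the horizontal axis and -log10 of the adjusted p on the vertical axis; the dashed line marks the threshold of 0.05. The 1065 genes higher in SiO2 are red and reach farther from 0 than the 751 lower ones in blue.

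Among the genes with large differences were several of inflammation. The neutrophil chemokine Cxcl5 (chr5:90759360-90761624 in mm10) was at 39.4, 33.5 and 38.3 CPM in the SiO2 libraries and at 0, 0.861 and 0.667 CPM in the BLM libraries. Every SiO2 library was far above every BLM library, and the difference was 6.12 ± 0.34. The acute-phase protein gene Saa3 (chr7:46711998-46715700) was at 731, 832 and 779 CPM in SiO2 and at 7.96, 20.7 and 10.2 CPM in BLM. The groups did not overlap, with a difference of 5.94 ± 0.43. Lipocalin Lcn2, which withholds iron from bacteria, was at 125, 90.0 and 92.6 CPM in SiO2, against 2.24, 4.59 and 0.667 CPM in BLM, again without overlap. Its difference of 5.43 ± 0.33 became 6.14 without BLM replicate 2. Csf3, the granulocyte colony-stimulating factor, averaged 16.6 ± 5.94 CPM in SiO2 and 0.514 ± 0.267 CPM in BLM (4.95 ± 0.57). The adjusted p of these 4 genes ran from 2.46e-14 (Cxcl5) to 1.20e-07 (Csf3).

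Of the 33 tested genes of the chemokine and cytokine list, 25 were higher in SiO2, 1 was lower and 7 did not pass, and the list's median difference was 1.43 against 0.00 over all genes. The attractants of neutrophils Cxcl2 (3.25 ± 0.27) and Cxcl1 (0.96 ± 0.16) were higher. So were those of monocytes, Ccl2 (2.22 ± 0.22) and Ccl7 (3.07 ± 0.35), and of T cells and dendritic cells, Ccl19 (3.16 ± 0.20) and Cxcl10 (1.33 ± 0.28). Cxcl9, another interferon-induced T cell attractant, averaged 25.5 ± 7.21 CPM in SiO2 and 2.40 ± 1.82 CPM in BLM (3.47 ± 0.44, or 4.14 without BLM replicate 2). Cxcl12, which holds haematopoietic cells in place, was at 173, 148 and 129 CPM in SiO2 and at 38.1, 44.2 and 33.8 CPM in BLM, with no overlap. The alarmin Il33 (2.23 ± 0.23), the macrophage growth factor Csf1 (0.84 ± 0.12) and the cytokine Lif (0.81 ± 0.13) were higher as well. The cytokine of osteoclasts and lymphoid stroma Tnfsf11 had 32 counts in the 3 SiO2 libraries and 0 in the 3 BLM libraries, which makes it at least 10.6-fold higher against a floor of 3 counts over the group. Its fitted difference passed without each of the 6 libraries in turn, at 5.67 without SiO2 replicate 3. Not all of the list was higher. Il6 was at 127, 88.4 and 69.4 CPM in SiO2 and at 97.3, 66.9 and 75.2 CPM in BLM, the groups overlapped, and its difference of 0.25 ± 0.18 did not pass (adjusted p = 0.43). The member lower in SiO2 was Cxcl14 (-0.45 ± 0.15, adjusted p = 0.033). Its call was lost without SiO2 replicate 2 or 3 or BLM replicate 1 or 3, with an adjusted p between 0.067 and 0.19.

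Haptoglobin Hp, an acute-phase protein that binds free haemoglobin, was chosen after its values were seen and had the smallest adjusted p among the genes named here (1.99e-17). It was at 572, 631 and 700 CPM in SiO2 and at 23.1, 32.7 and 30.0 CPM in BLM, a difference of 4.47 ± 0.18. A pair of receptors of the tumour necrosis factor family, Tnfrsf21 and Tnfrsf9, was higher too. Tnfrsf21 was at 89.9, 189 and 164 CPM in SiO2, against 4.48, 3.44 and 2.67 CPM in BLM (5.38 ± 0.32). Tnfrsf9 was at 18.9, 21.8 and 27.4 CPM in SiO2 and at 1.49, 0 and 0 CPM in BLM. Its fitted difference of 5.42 ± 0.54 was 4.78 without BLM replicate 3 and 9.38 without BLM replicate 1, which held every BLM count of the gene. Among the 12 genes with the largest differences, counted over called genes that did not overlap between groups and averaged at least 10 CPM in the higher one, were also Clstn2, Parm1, Clec4n and Syt13, with 2 or 3 counts each over the BLM libraries. Their ratios of SiO2 to BLM ran from 39.8 for Syt13 (95% counting interval 13.3 to 196) to 67.2 for Clstn2 (18.2 to 561), and intervals of this kind cover counting error only. Without 1 BLM library the fitted differences of these 4 genes lay between 4.52 (Syt13, without BLM replicate 3) and 8.28 (Parm1, without BLM replicate 2).

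Markers of myeloid cells moved with these genes. The summed level of 21 markers was 46.3, 58.6 and 49.2 CPM in SiO2 and 22.4, 20.1 and 13.3 CPM in BLM, with untreated libraries between 15.3 and 44.0 CPM. The groups did not overlap, and the two-sided exact permutation test gave p = 0.1, the smallest that 3 against 3 libraries allow. Of the 7 markers tested, 3 were higher in SiO2, led by the signalling adaptor Tyrobp (18.1 ± 2.51 CPM in SiO2 and 3.23 ± 1.13 CPM in BLM). The others were Laptm5 and Lyz1. Laptm5 lost its call without SiO2 replicate 2 or 3 or BLM replicate 2 or 3 (adjusted p between 0.051 and 0.12). Lyz1 lost its call without BLM replicate 1 (adjusted p = 0.068). The receptors Fcgr3 (4.95 ± 0.59) and Clec4n, which myeloid cells carry, were among the 12 genes with the largest differences. Of the genes that define macrophages, Lyz2 had 14 counts in the 3 SiO2 libraries together and 6 in the 3 BLM libraries, Cd68 had 4 in SiO2 and 6 in BLM, and Csf1r had 6 in SiO2 and 0 in BLM. The summed level of 13 lymphocyte markers was 51.2, 50.9 and 43.6 CPM in SiO2 and 8.21, 8.04 and 5.34 CPM in BLM. Most of it was the chemokine Ccl5, at 38.9 ± 6.65 CPM in SiO2 and 4.13 ± 1.54 CPM in BLM, while the T cell marker Cd3e had 0 counts in both groups. The part of other cells in the inflammatory difference was not tested.

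Genes induced by interferon formed the list with the most members higher in SiO2. Of its 34 tested genes, 29 were higher, 1 was lower and 4 did not pass, with a median difference of 1.16. The ubiquitin-like modifier Isg15 (chr4:156199424-156200818) was at 195, 181 and 122 CPM in SiO2 and at 54.8, 46.5 and 54.0 CPM in BLM. All SiO2 libraries lay above all BLM libraries, and the difference was 1.67 ± 0.27 (adjusted p = 2.30e-05). The RNA-binding effector Ifit1 was at 168, 183 and 161 CPM in SiO2, against 44.8, 39.6 and 56.3 CPM in BLM (1.86 ± 0.30). Its relative Ifit3 was at 269, 284 and 263 CPM in SiO2 and at 75.7, 83.8 and 99.4 CPM in BLM (1.65 ± 0.28). Neither gene's groups overlapped. The antiviral genes Mx1 (2.22 ± 0.34), Rsad2 (2.63 ± 0.47) and Zbp1 (2.31 ± 0.31), the guanylate-binding protein Gbp6 (1.83 ± 0.23) and the transcription factors Stat2 (0.97 ± 0.17) and Irf7 (1.99 ± 0.36) were higher. Oas1a, a sensor of double-stranded RNA, had 62 counts in SiO2 and 0 in BLM, at least 20.6-fold higher. The member that was lower in SiO2 was the transcription factor Irf1, at 148 ± 10.9 CPM in SiO2 and 303 ± 24.8 CPM in BLM (-1.03 ± 0.17).

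The 200 bases before the annotated start of 4 of the genes induced by interferon, and of the chemokine gene Cxcl2, are shown because their genes differed between the groups and their windows hold a known response motif. Capitals mark the core of the interferon-stimulated response element, 2 copies of GAAA with 2 bases of any kind between them, on either strand. In Cxcl2 they mark the NF-kB motif, GGGA and TTTCC with 1 base between, also searched on both strands. Sequences are from RefSeq in GRCm38.p6 and are written on the strand of the gene.
Isg15, chr4:156200819-156201018, minus strand: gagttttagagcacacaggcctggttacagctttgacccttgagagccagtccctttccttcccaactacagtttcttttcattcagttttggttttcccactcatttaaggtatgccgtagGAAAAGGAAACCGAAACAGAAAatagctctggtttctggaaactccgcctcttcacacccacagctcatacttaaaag
Ifit1, chr19:34640689-34640888, plus strand: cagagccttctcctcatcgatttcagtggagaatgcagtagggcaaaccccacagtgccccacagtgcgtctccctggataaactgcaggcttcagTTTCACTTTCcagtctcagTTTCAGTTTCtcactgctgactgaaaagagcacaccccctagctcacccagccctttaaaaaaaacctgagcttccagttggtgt
Ifit3, chr19:34583329-34583528, plus strand: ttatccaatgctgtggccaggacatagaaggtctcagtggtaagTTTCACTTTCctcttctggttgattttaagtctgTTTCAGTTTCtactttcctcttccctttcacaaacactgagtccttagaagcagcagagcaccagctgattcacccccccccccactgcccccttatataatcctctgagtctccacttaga
B2m, chr2:122147487-122147686, plus strand: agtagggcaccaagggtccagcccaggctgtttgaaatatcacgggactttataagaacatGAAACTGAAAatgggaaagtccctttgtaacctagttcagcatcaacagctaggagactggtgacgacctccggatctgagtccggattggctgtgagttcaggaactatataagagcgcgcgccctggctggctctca
Cxcl2, chr5:90903699-90903898, plus strand: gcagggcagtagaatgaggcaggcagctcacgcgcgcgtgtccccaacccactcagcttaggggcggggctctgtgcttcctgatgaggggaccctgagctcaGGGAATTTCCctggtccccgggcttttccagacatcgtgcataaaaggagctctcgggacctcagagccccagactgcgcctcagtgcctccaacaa
The Isg15 window held 3 overlapping matches that begin 66 to 78 bases before the start, Ifit1 and Ifit3 held 2 each, and B2m and Cxcl2 1 each. Each printed window was searched only for the motif marked in it. The B2m window also holds an unmarked stretch that fits the NF-kB motif on the other strand. Of all 32851 promoter windows from the same source, 3.44% held the interferon motif and 0.411% the NF-kB motif. Those windows reach past the start and are longer than the 200 bases shown, so the shares are not those of the printed length. Only 26 of the 34 tested genes of the interferon list (76.5%) had a window, so no share over the list is given. A match describes letters in a window and does not show that a factor bound there.

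Genes of MHC class I, which displays peptides to cytotoxic T cells, went the same way. Of 18 tested genes 13 were higher in SiO2 and 5 did not pass, with a median difference of 1.27. The heavy chain H2-K1 was at 283, 317 and 304 CPM in SiO2 and at 85.6, 89.5 and 74.7 CPM in BLM (1.86 ± 0.16). Its partner beta-2 microglobulin, B2m, was at 263, 290 and 253 CPM in SiO2, against 97.6, 94.1 and 86.9 CPM in BLM (1.53 ± 0.12). In neither gene did the groups overlap. The heavy chains H2-D1 (1.65 ± 0.19) and H2-Q4 (1.77 ± 0.19), the peptide transporter Tap1 (1.24) and the immunoproteasome subunit Psmb8 (1.15 ± 0.12) were higher as well. H2-Q6 averaged 125 ± 14.4 CPM in SiO2 and 8.17 ± 1.03 CPM in BLM (3.94 ± 0.22), and H2-Q7 51.9 ± 3.09 CPM in SiO2 and 3.58 ± 0.146 CPM in BLM. Class I genes, the Ifit and Oas families, Ccl19 and the Saa genes have near-identical copies, so the division of their tags among copies is uncertain.

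Complement genes were also mostly higher, with 11 of 16 higher in SiO2, 1 lower and 4 that did not pass. The central component C3 was at 2908, 2491 and 2833 CPM in SiO2 and at 913, 669 and 640 CPM in BLM (1.89 ± 0.13). Clusterin, Clu, an inhibitor of the membrane attack complex, averaged 122 ± 7.54 CPM in SiO2 and 14.7 ± 2.73 CPM in BLM (3.07 ± 0.19). The C1 inhibitor Serping1 (0.74 ± 0.09), the protease C1s1 (0.87 ± 0.14) and factor B, Cfb (1.29 ± 0.18), were higher. C7, a late component, was lower, at 79.5 ± 5.82 CPM in SiO2 and 170 ± 19.1 CPM in BLM (-1.10 ± 0.14).

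Both day 63 groups were also set beside the same 3 untreated libraries, which the comparisons share. Against untreated, 3249 genes (27.8%) passed in SiO2, 1789 higher (15.3%) and 1460 lower (12.5%), and 1343 (11.5%) passed in BLM, 703 higher (6.02%) and 640 lower (5.48%). Without BLM replicate 3 the BLM count was 814, and without untreated replicate 1 it was 795. For several inflammatory genes the groups lay on opposite sides of untreated. Cxcl5 was 3.28 ± 0.24 higher than untreated in SiO2 and lower in BLM (-2.84 ± 0.52, adjusted p = 3.5e-04), with untreated libraries at 4.40, 4.02 and 2.34 CPM. Lcn2 was higher in SiO2 (3.45) and lower in BLM (-1.97, adjusted p = 0.0034), and Saa3 was higher in SiO2 (4.36) and lower in BLM (-1.59, adjusted p = 0.019). In the interferon list 18 of 34 genes were higher and 1 lower than untreated in SiO2, while in BLM 13 were lower and 21 did not pass. Zbp1 (0.71 in SiO2 and -1.60 in BLM), Gbp6 (0.69 in SiO2 and -1.13 in BLM) and H2-K1 (1.15 in SiO2 and -0.71 in BLM) passed in both directions. Stat2 did not pass in SiO2 (-0.10, adjusted p = 0.71) and was lower in BLM (-1.07). In the class I list, 11 of 18 genes were higher than untreated in SiO2, and in BLM 5 were lower and 13 did not pass.

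**Figure D2:**
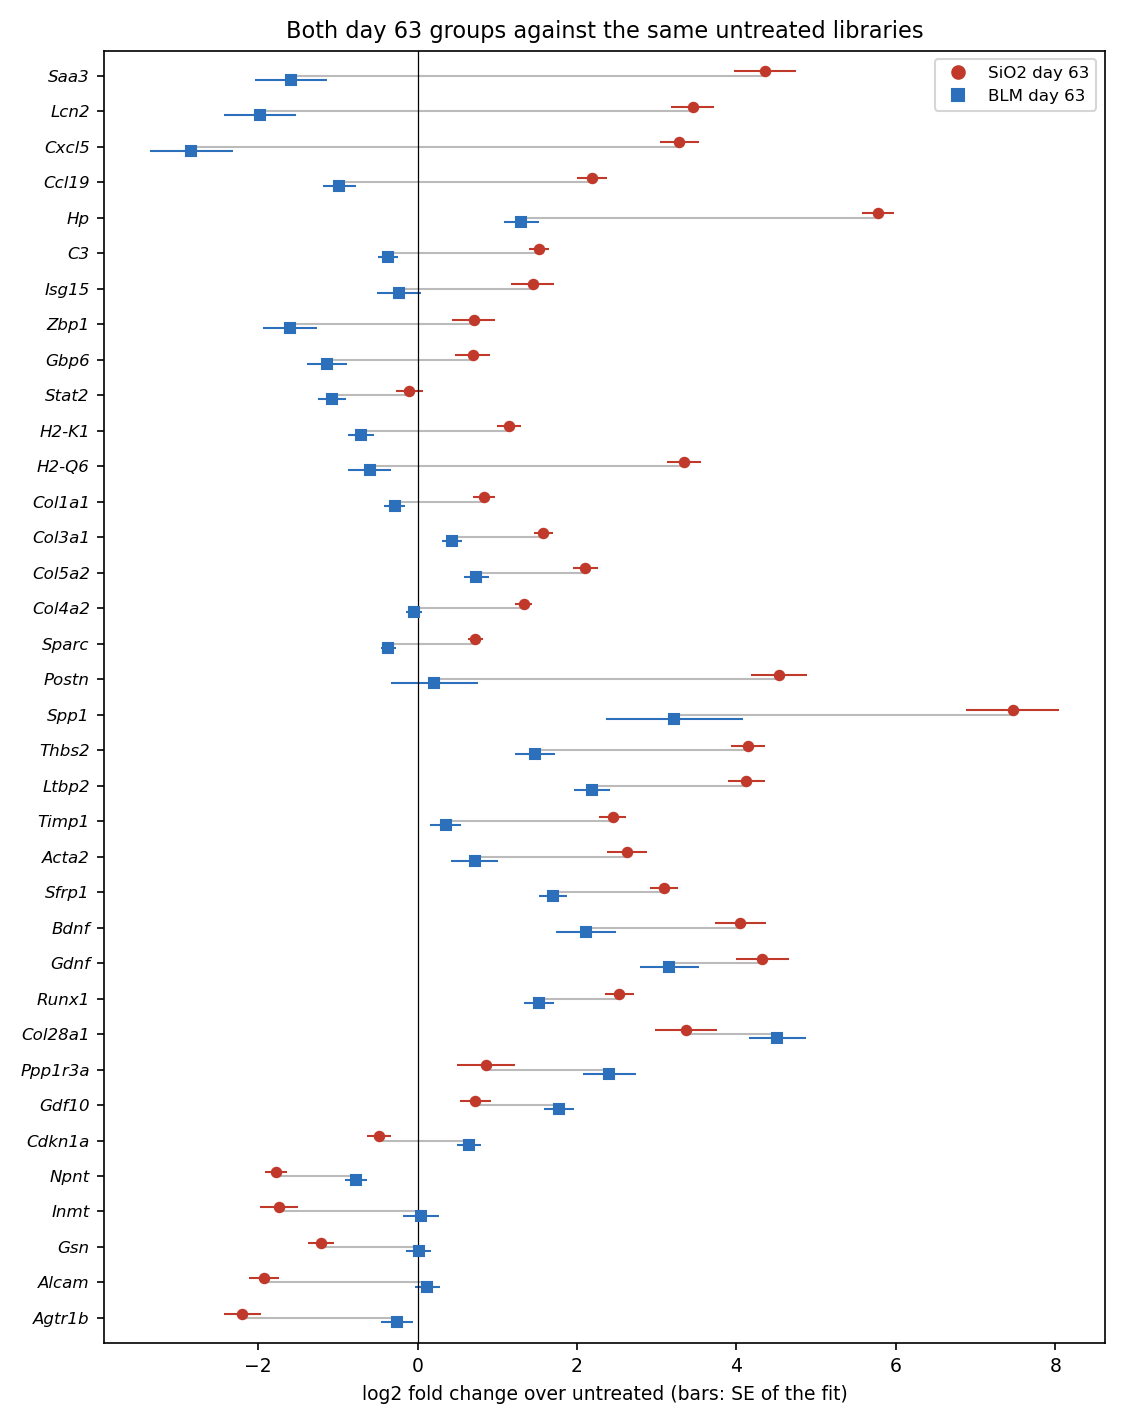
Log2 fold change over untreated of 36 genes, with SiO2 day 63 as red circles and BLM day 63 as blue squares; bars are the SE of the fit, and both groups are set against the same 3 untreated libraries. Cxcl5, Saa3 and Lcn2 lie right of 0 in SiO2 and left of it in BLM, whereas Col28a1, Ppp1r3a and Gdf10 lie farther right in BLM.

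Genes of the fibrillar collagens, which give the scar its tensile strength, were higher in SiO2 in 8 of 9 tested cases, with a median difference of 1.12. The remaining chain, Col27a1, did not pass (-0.28, adjusted p = 0.47). Col1a1 was at 1254, 1226 and 1205 CPM in SiO2 and at 505, 606 and 584 CPM in BLM. The groups were far apart, and the difference was 1.12 ± 0.13 (adjusted p = 2.03e-07). Col3a1 was at 6980, 7138 and 6747 CPM in SiO2, against 2519, 3807 and 3098 CPM in BLM (1.15 ± 0.12). Col1a2, the gene the reporter is named for, was at 3388, 3284 and 3303 CPM in SiO2 and at 1471, 1728 and 1668 CPM in BLM (1.04 ± 0.10). The cells were sorted by the reporter, whose own level is not given here. Among the minor chains that nucleate fibrils, Col5a1 (1.06 ± 0.13), Col5a2 (1.37 ± 0.15) and Col24a1 (1.24 ± 0.20) were higher. Col11a1 averaged 17.6 ± 2.83 CPM in SiO2 and 2.42 ± 1.74 CPM in BLM (2.81 ± 0.68, or 3.56 without BLM replicate 3). Col5a3 lost its call without BLM replicate 1 (adjusted p = 0.061).

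Against untreated, Col1a1 was higher in SiO2 by 0.83, Col1a2 by 1.08, Col3a1 by 1.58, Col5a2 by 2.11 and Col24a1 by 4.27. Col1a1 in BLM did not pass against untreated (-0.29 ± 0.13, adjusted p = 0.18), nor did Col1a2 (0.04, adjusted p = 0.85). Col3a1 (0.43), Col5a2 (0.74) and Col24a1 (3.03) were higher than untreated in BLM. Among the other interstitial collagens, 3 of 16 were higher and 3 lower in SiO2 than in BLM. Col7a1, which forms anchoring fibrils, was higher (0.98 ± 0.17). Col28a1 was lower, at 22.6, 24.5 and 19.4 CPM in SiO2 and at 32.9, 64.6 and 49.6 CPM in BLM (-1.14 ± 0.24), while untreated libraries had 0.777 to 3.27 CPM. Col13a1, a transmembrane collagen, was lower as well (-0.76 ± 0.14), at 665 ± 8.91 CPM in SiO2, 1124 ± 152 CPM in BLM and 1638 ± 204 CPM in untreated.

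Of the 24 tested genes that process and cross-link collagen, 12 were higher, 1 was lower and 11 did not pass. The 12 became 8 without BLM replicate 1. Sparc, a collagen-binding protein of the matrix, was at 25487, 28190 and 25689 CPM in SiO2 and at 12017, 13193 and 11964 CPM in BLM (1.09 ± 0.09). Its BLM level was below the 15994 ± 375 CPM of untreated libraries (-0.37, adjusted p = 0.0078). The cross-linking enzymes Loxl2 (1.14 ± 0.13) and Lox (0.85 ± 0.15), the propeptide-cleaving protease Bmp1 (1.10 ± 0.20) and the prolyl hydroxylase subunit P4ha3 (1.49 ± 0.19) were higher. Lox in SiO2 did not pass against untreated (0.13, adjusted p = 0.57), and in BLM it was lower than untreated (-0.73). Pcolce2, an enhancer of procollagen cleavage and a gene of adventitial fibroblasts, was lower at 127 ± 8.83 CPM in SiO2 and 307 ± 51.9 CPM in BLM (-1.27 ± 0.15).

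Matrix glycoproteins split, with 10 of 25 higher, 3 lower and 12 that did not pass. Periostin, Postn, was at 59.1, 74.0 and 64.1 CPM in SiO2 and at 2.99, 3.44 and 3.34 CPM in BLM. The SiO2 libraries stood clear of the BLM libraries, with a difference of 4.32 ± 0.32, while BLM did not pass against untreated (0.21, adjusted p = 0.86), whose libraries had 2.34 to 3.01 CPM. Osteopontin, Spp1, was at 103, 159 and 232 CPM in SiO2, against 10.5, 12.6 and 3.78 CPM in BLM (4.24 ± 0.40). Thrombospondin Thbs2 was at 101, 113 and 106 CPM in SiO2 and at 11.2, 18.7 and 20.2 CPM in BLM (2.67 ± 0.17). None of these 3 overlapped between groups. Fibronectin Fn1 (0.67 ± 0.16), tenascin Tnc (0.76 ± 0.18) and the calcium-binding protein Smoc2 (1.69 ± 0.15) were higher. The 3 lower members were Tnxb, Ecm2 and Fbln1, with differences of -0.91, -0.93 and -0.59.

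Elastic fibre genes were higher in 7 of 15 cases and lower in 2. The 7 became 5 without SiO2 replicate 2 or BLM replicate 1, and 5 with DESeq2. Ltbp2, which binds fibrillin microfibrils, was at 368, 334 and 331 CPM in SiO2 and at 62.2, 96.7 and 111 CPM in BLM (1.93 ± 0.19). Elastin, Eln, was higher (0.65 ± 0.16), and Ltbp4, which elastic fibre assembly needs, was lower (-0.98 ± 0.18). Basement membrane genes were higher in 7 of 18 cases and lower in 1, and the 7 became 5 without BLM replicate 3. Col4a1 (1.07 ± 0.15), Col4a2 (1.38 ± 0.10) and the laminin chain Lama5 (1.49 ± 0.17) were among the 7. Col4a2 was at 3942, 4605 and 4591 CPM in SiO2 and at 1578, 1828 and 1654 CPM in BLM, and BLM did not pass against untreated (1742 ± 119 CPM, log2 difference -0.05, adjusted p = 0.83). The laminin chain Lama1 had 90 counts in SiO2 and 2 in BLM, a ratio of 44.8 (95% counting interval 12.0 to 376), and its fitted difference of 5.23 became 7.77 without BLM replicate 3. Proteoglycan genes were split evenly, with 5 of 20 higher and 5 lower, although 2 were lower without SiO2 replicate 1. The hyaluronan receptor Cd44 (1.03 ± 0.11), syndecan Sdc1 (2.89 ± 0.30) and biglycan Bgn (0.47 ± 0.08) were higher, and osteoglycin Ogn was lower (-0.95 ± 0.14).

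Among proteases of the matrix and their inhibitors, 11 of 27 were higher and 3 lower. The inhibitor Timp1 was at 63.1, 76.7 and 86.8 CPM in SiO2 and at 17.7, 21.8 and 14.2 CPM in BLM, with no overlap (2.09 ± 0.16). Another inhibitor of the family, Timp3, was lower, at 418, 366 and 374 CPM in SiO2 and at 680.2, 698 and 753 CPM in BLM (-0.88 ± 0.13). The membrane protease Mmp14 (0.91 ± 0.09), cathepsin K, Ctsk (1.81 ± 0.23), and the disintegrin-like proteases Adamdec1 (4.63 ± 0.51) and Adam19 (1.15 ± 0.26) were higher. The collagenase Mmp13 had 81 counts in the SiO2 libraries and 0 in the BLM libraries, at least 26.9-fold higher.

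**Figure D3:**
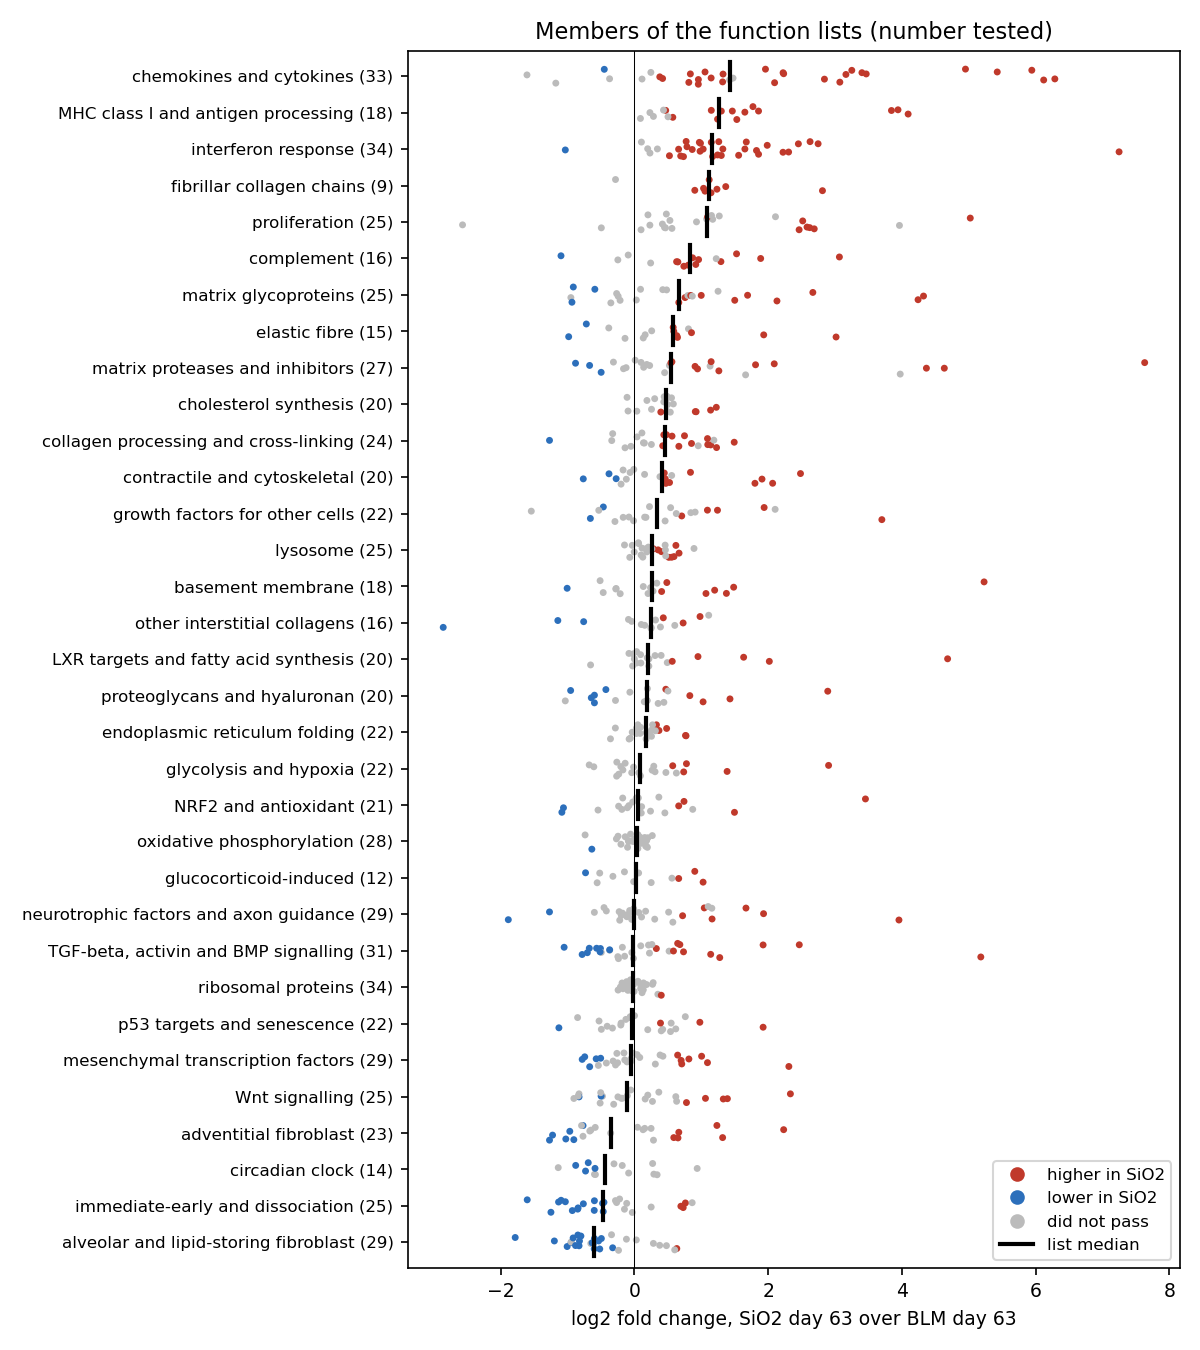
Log2 fold change of SiO2 day 63 over BLM day 63 for each tested member of the 33 function lists, ordered by the list median (black bar); members higher in SiO2 are red, lower ones blue and those that did not pass grey. The chemokine, class I, interferon and fibrillar collagen lists have medians between 1.12 and 1.43, and the alveolar fibroblast list has the lowest median, -0.60.

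Contractile genes of myofibroblasts, the stress-fibre-bearing fibroblasts of scars, were higher in 9 of 20 cases and lower in 3, and the 9 became 5 without SiO2 replicate 3 and 4 without BLM replicate 1. Smooth muscle actin Acta2 was at 51.5, 55.1 and 48.1 CPM in SiO2 and at 12.9, 14.9 and 13.3 CPM in BLM (1.91 ± 0.23), against 8.28 ± 1.18 CPM in untreated. Actg2 (2.48 ± 0.31), the actin-bundling protein Synpo2 (29.4 ± 4.02 CPM in SiO2 and 8.43 ± 1.20 CPM in BLM) and the stretch-responsive gene Ankrd1 (2.07 ± 0.32) were higher. Nonmuscle myosin Myh10 was lower (-0.76 ± 0.09). The summed level of 15 pericyte and smooth muscle markers, which include Actg2, was 356, 347 and 367 CPM in SiO2 and 214, 232 and 263 CPM in BLM (two-sided exact permutation p = 0.1). Of these, Notch3 (2.39 ± 0.34) and Pdgfrb (1.21 ± 0.18) were higher, while Myh11, the myosin of smooth muscle, averaged 3.92 CPM in SiO2 and 3.94 CPM in BLM. The gate was set to remove cells with CD146, an antigen of pericytes and smooth muscle cells, and its gene Mcam was at or near 0 in both groups. The part of these cells in the contractile difference was not tested.

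Regulators of growth factor signalling differed in both directions. Of the TGF-beta, activin and BMP list 10 of 31 genes were higher and 8 lower in SiO2, the 8 being 4 or 5 without SiO2 replicate 2 or 3 or BLM replicate 1 or 3. The BMP antagonist Grem1 was at 11.3, 24.8 and 21.8 CPM in SiO2 and at 0.249, 0.861 and 0.445 CPM in BLM, and untreated libraries were all at 0. Its difference was 5.18 ± 0.49. The activin antagonist follistatin, Fst, averaged 15.6 ± 5.34 CPM in SiO2 and 2.80 ± 0.44 CPM in BLM (2.47 ± 0.32), and the TGF-beta target Ctgf was higher (0.74 ± 0.14). The ligand gene Tgfb1 did not pass (0.52 ± 0.23, adjusted p = 0.14). Gdf10, a ligand of the same family, was lower, at 32.3, 28.2 and 37.2 CPM in SiO2 and at 58.2, 71.7 and 72.9 CPM in BLM (-1.05 ± 0.17), and both groups were above untreated (0.73 in SiO2 and 1.77 in BLM). In the Wnt list 5 of 25 were higher and 2 lower, with a median of -0.10. Over all tested genes 9.13% were higher and 6.44% lower, so the lower count was near the general share. The 2 lower genes, Wnt2 (-0.83 ± 0.24) and Axin2 (-0.50 ± 0.14), both lost their call without SiO2 replicate 3 or BLM replicate 1, and 1 was lower without SiO2 replicate 2 or BLM replicate 2. The Wnt-binding proteins Sfrp1 (1.39 ± 0.17) and Frzb (2.33 ± 0.37, or 2.97 without BLM replicate 2) and the agonist Rspo3 (1.33 ± 0.23) were among the 5, and the difference of each from untreated passed in both groups.

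Among factors that act on other cells, insulin-like growth factor Igf1 (1.09 ± 0.17), its binding protein Igfbp4 (1.24 ± 0.11) and neuregulin Nrg1 (3.70 ± 0.37) were higher. In the list of growth factors for other cells, 5 of 22 tested genes were higher, 2 were lower and 15 did not pass. Hepatocyte growth factor, Hgf, was lower, at 89.1, 80.1 and 73.2 CPM in SiO2 and at 134, 133 and 115 CPM in BLM (-0.66 ± 0.12). Its BLM level was above untreated (0.51, adjusted p = 0.0044), and its SiO2 level did not pass (-0.15, adjusted p = 0.41). Of the neurotrophic and axon guidance genes, 6 of 29 were higher and 2 lower. Over all tested genes 9.13% were higher and 6.44% lower, so the lower count was near the general share. Brain-derived neurotrophic factor, Bdnf, was at 46.8, 51.9 and 52.5 CPM in SiO2, against 7.47, 14.3 and 17.6 CPM in BLM (1.93 ± 0.24). Gdnf, a survival factor for neurons, averaged 42.8 ± 3.95 CPM in SiO2 and 18.9 ± 9.86 CPM in BLM (1.16 ± 0.22), and the guidance cue Ntn1 was lower (-1.27 ± 0.21). Bdnf and Gdnf were higher than untreated in both groups, Bdnf by 4.05 in SiO2 and 2.11 in BLM, and Gdnf by 4.32 in SiO2 and 3.16 in BLM. The transcription factor Runx1 went the same way, at 86.2 ± 8.07 CPM in SiO2, 42.7 ± 9.56 CPM in BLM and 15.3 ± 2.95 CPM in untreated.

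Genes of alveolar and lipid-storing fibroblasts, the cells beside the alveolar epithelium, were mostly lower in SiO2. Of 29 tested, 18 were lower, 1 was higher and 10 did not pass, with a median difference of -0.60. The 18 became 12 without BLM replicate 1 and 14 without SiO2 replicate 3. The methyltransferase Inmt was at 396, 386 and 373 CPM in SiO2 and at 1356, 1270 and 1343 CPM in BLM (-1.78 ± 0.23). Every BLM library was more than 3-fold above every SiO2 library, and BLM did not differ detectably from untreated (0.04, adjusted p = 0.94). Nephronectin, Npnt, a ligand of integrin alpha-8, was at 881, 800.3 and 800.4 CPM in SiO2, against 1836, 1573 and 1569 CPM in BLM (adjusted p = 1.72e-06). Its receptor chain Itga8 was at 435, 434 and 413 CPM in SiO2 and at 752, 717 and 795 CPM in BLM (-0.82 ± 0.11). The groups did not overlap in any of the 3. The lipid droplet protein genes Mettl7a1 (-1.20 ± 0.14) and G0s2 (-0.94 ± 0.19), the angiogenic factor Figf (-0.88 ± 0.12), the retinaldehyde dehydrogenase Aldh1a1 (-0.84 ± 0.14) and Limch1 (-0.60 ± 0.09) were lower. Against untreated, Npnt was lower both in SiO2 (-1.77) and in BLM (-0.77), and so were G0s2 (-1.73 in SiO2 and -0.79 in BLM) and Figf (-1.45 in SiO2 and -0.57 in BLM). Tcf21, a transcription factor of these cells, was lower (-0.52 ± 0.14), but not without SiO2 replicate 3 (adjusted p = 0.066) or BLM replicate 1 (0.16). The member higher in SiO2 was the microfibril gene Mfap4 (0.64 ± 0.14), which was below untreated in both groups (-0.55 in SiO2 and -1.19 in BLM).

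Adventitial fibroblast genes, typical of the cuffs around vessels and airways, were divided, with 6 of 23 higher and 6 lower. Gsn, which severs actin filaments, was at 2660, 2178 and 2378 CPM in SiO2 and at 6396, 5319 and 5117 CPM in BLM (-1.22 ± 0.16). The binding protein Igfbp6 (-1.02 ± 0.16), the progenitor markers Cd34 (-0.96 ± 0.13) and Pi16 (-0.77 ± 0.18) were lower, and Ly6a (1.23 ± 0.22) was higher. Mesothelial markers summed to 233, 254 and 266 CPM in SiO2 and to 442, 414 and 363 CPM in BLM, with untreated between 532 and 665 CPM. This difference was that of 1 gene, uroplakin Upk1b, at 194 ± 19.1 CPM in SiO2 and 351 ± 40.0 CPM in BLM (-0.85 ± 0.12). Of the 9 mesothelial markers tested, Upk1b was lower, mesothelin, Msln, was higher (0.86 ± 0.29, adjusted p = 0.038) and 7 did not pass, with a median difference of 0.25. The call of Msln was lost without any 1 of 5 of the 6 libraries, SiO2 replicate 2 being the exception (adjusted p between 0.080 and 0.20). The part of mesothelial cells in the lower genes was not tested.

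Among the 12 genes with the most negative differences, the adhesion molecule Alcam was at 9.72, 9.32 and 13.1 CPM in SiO2 and at 47.3, 47.3 and 40.2 CPM in BLM (-2.05 ± 0.18, adjusted p = 5.43e-10). Its BLM level did not pass against untreated (0.12, adjusted p = 0.70), which averaged 41.6 ± 5.25 CPM. A pair of receptors for vasoactive ligands was also among them, the angiotensin receptor Agtr1b, at 11.8 ± 4.47 CPM in SiO2 and 44.9 ± 1.38 CPM in BLM (-1.94 ± 0.23), and the adrenergic receptor Adra1a, at 18.1 ± 1.02 CPM in SiO2 and 56.0 ± 12.1 CPM in BLM (-1.63 ± 0.22). The adhesion genes Lsamp (-1.98 ± 0.26) and Fat3 (-1.99 ± 0.31) and the vesicle transport gene Rab6b (-1.97 ± 0.42) were lower, as were LOC102637409 (-1.87 ± 0.35) and Gm4956 (-1.56 ± 0.29). Ppp1r3a, a glycogen-targeting subunit of protein phosphatase, was at 16.0, 24.5 and 12.2 CPM in SiO2 and at 43.3, 55.7 and 54.3 CPM in BLM (-1.55 ± 0.30). In BLM it was above untreated (2.41, adjusted p = 9.6e-06), and in SiO2 the difference did not pass (0.86, adjusted p = 0.081). Rabac1 had the most negative value of the 12, -4.38 ± 1.42, which rested on 1 library. It was at 54.4, 66.6 and 77.5 CPM in SiO2 and at 89.6, 86.1 and 3966 CPM in BLM, and without BLM replicate 3 its difference was -0.41 (adjusted p = 0.89). Its call was also lost without any of the SiO2 libraries (adjusted p between 0.099 and 0.11).

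The cell cycle inhibitor Cdkn1a, a p53 target, was lower in SiO2 and set apart from its list. It was at 674, 673 and 691 CPM in SiO2 and at 1532, 1369 and 1549 CPM in BLM (-1.13 ± 0.15), with untreated libraries at 642, 1031 and 1178 CPM. BLM was above untreated (0.64, adjusted p = 0.0032) and SiO2 below it (-0.48, adjusted p = 0.013). Of the 22 tested genes of the p53 and senescence list, 3 were higher, 1 lower and 18 did not pass, and 1 was higher without BLM replicate 3. These counts were near the shares over all tested genes, 9.13% higher and 6.44% lower. Proliferation genes were low in both groups. The topoisomerase Top2a was at 13.4, 19.4 and 20.7 CPM in SiO2 and at 1.49, 3.44 and 3.34 CPM in BLM (2.69 ± 0.47). Of the 25 tested proliferation genes 7 were higher, but 2 without SiO2 replicate 3 and 4 without BLM replicate 3. The 7 also became 5 with DESeq2, 3 with limma-voom and 2 when only the 6 day 63 libraries were fitted.

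Immediate-early genes, which also respond to tissue digestion, were lower in 14 of 25 cases and higher in 3, with a median difference of -0.46. The 3 became 1 without SiO2 replicate 1 or 3 or BLM replicate 1 or 3, and 1 with DESeq2. The nuclear receptor Nr4a2 averaged 20.6 ± 0.394 CPM in SiO2 and was at 77.7, 47.1 and 62.3 CPM in BLM, with no overlap (-1.60 ± 0.22). Btg2 (-1.09 ± 0.11), Nr4a1 (-1.03 ± 0.14), Egr1 (-0.76 ± 0.11), Atf3 (-0.93 ± 0.17) and Fosb (-0.84 ± 0.18) were lower, while Klf6 was higher (0.76 ± 0.09). All cells passed through the same digestion by the labels' protocols, and the part of handling in these differences was not tested. Among antioxidant genes the mitochondrial superoxide dismutase Sod2, itself an NF-kB target, was at 2997, 2744 and 2387 CPM in SiO2 and at 1073, 873 and 932 CPM in BLM (adjusted p = 8.72e-10). The glutathione transferases Gstm1 (-1.06 ± 0.23) and Gsta3 (-1.08 ± 0.23) were lower. Of the 21 tested genes of the antioxidant list, 4 were higher, 2 lower and 15 did not pass. The 4 became 2 without BLM replicate 2 or 3. In lipid handling, the phospholipid transfer protein Pltp was at 2001, 1708 and 1102 CPM in SiO2, against 478, 372 and 337 CPM in BLM (2.02 ± 0.21). The fatty acid elongase Elovl6 (1.63 ± 0.24) and the sterol exporter Abca1 (0.95 ± 0.14) were higher, whereas the regulator Srebf1 did not pass (0.22 ± 0.21, adjusted p = 0.57). In the list of LXR targets and fatty acid synthesis, 5 of 20 tested genes were higher and 15 did not pass.

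Housekeeping groups showed little difference. Of 34 ribosomal protein genes, 33 did not pass, and their median difference was -0.02. Of 28 genes of oxidative phosphorylation, 27 did not pass, and their median was 0.04.

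The difference between SiO2 and BLM at day 63 was then set against that at day 14, as the difference of these differences. It passed in 2160 genes (18.5%). For several matrix genes the mean difference at day 14, which was not tested by itself, had the opposite sign. Col1a1 averaged 2293 ± 367 CPM in SiO2 and 3562 ± 345 CPM in BLM at day 14 (log2 difference -0.64), and 1228 CPM in SiO2 and 565 CPM in BLM at day 63. The difference had thus moved by 1.75 ± 0.19 (adjusted p = 3.68e-08). Postn averaged 31.4 ± 13.8 CPM in SiO2 and 87.8 ± 18.2 CPM in BLM at day 14, and moved by 5.81 ± 0.40. Spp1 averaged 84.4 ± 40.3 CPM in SiO2 and 2086 ± 639 CPM in BLM at day 14, and moved by 8.87 ± 0.52. Inmt went the other way, with 488 ± 218 CPM in SiO2 and 141 ± 35.0 CPM in BLM at day 14, and moved by -3.57 ± 0.34.

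For Isg15, H2-K1, C3 and Cxcl5 the mean at day 14 was likewise higher in SiO2 than in BLM, a difference that was not tested by itself. Isg15 averaged 281 ± 41.4 CPM in SiO2 and 54.1 ± 15.2 CPM in BLM at day 14, and its difference changed by -0.69 ± 0.37 to day 63, which did not pass (adjusted p = 0.21). For H2-K1 the change was -0.04 ± 0.22 (adjusted p = 0.93), for C3 0.16 ± 0.18 (adjusted p = 0.59) and for Cxcl5 0.88 ± 0.77 (adjusted p = 0.49). These misses do not show that the differences were equal at the 2 times. Saa3 averaged 859 ± 327 CPM in SiO2 and 130.0 ± 31.7 CPM in BLM at day 14, and its difference grew by 3.22 ± 0.53 (adjusted p = 3.42e-05) to day 63. Tnfrsf21 (3.37 ± 0.45) and Hp (3.56 ± 0.23) also grew apart.

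**Figure D4:**
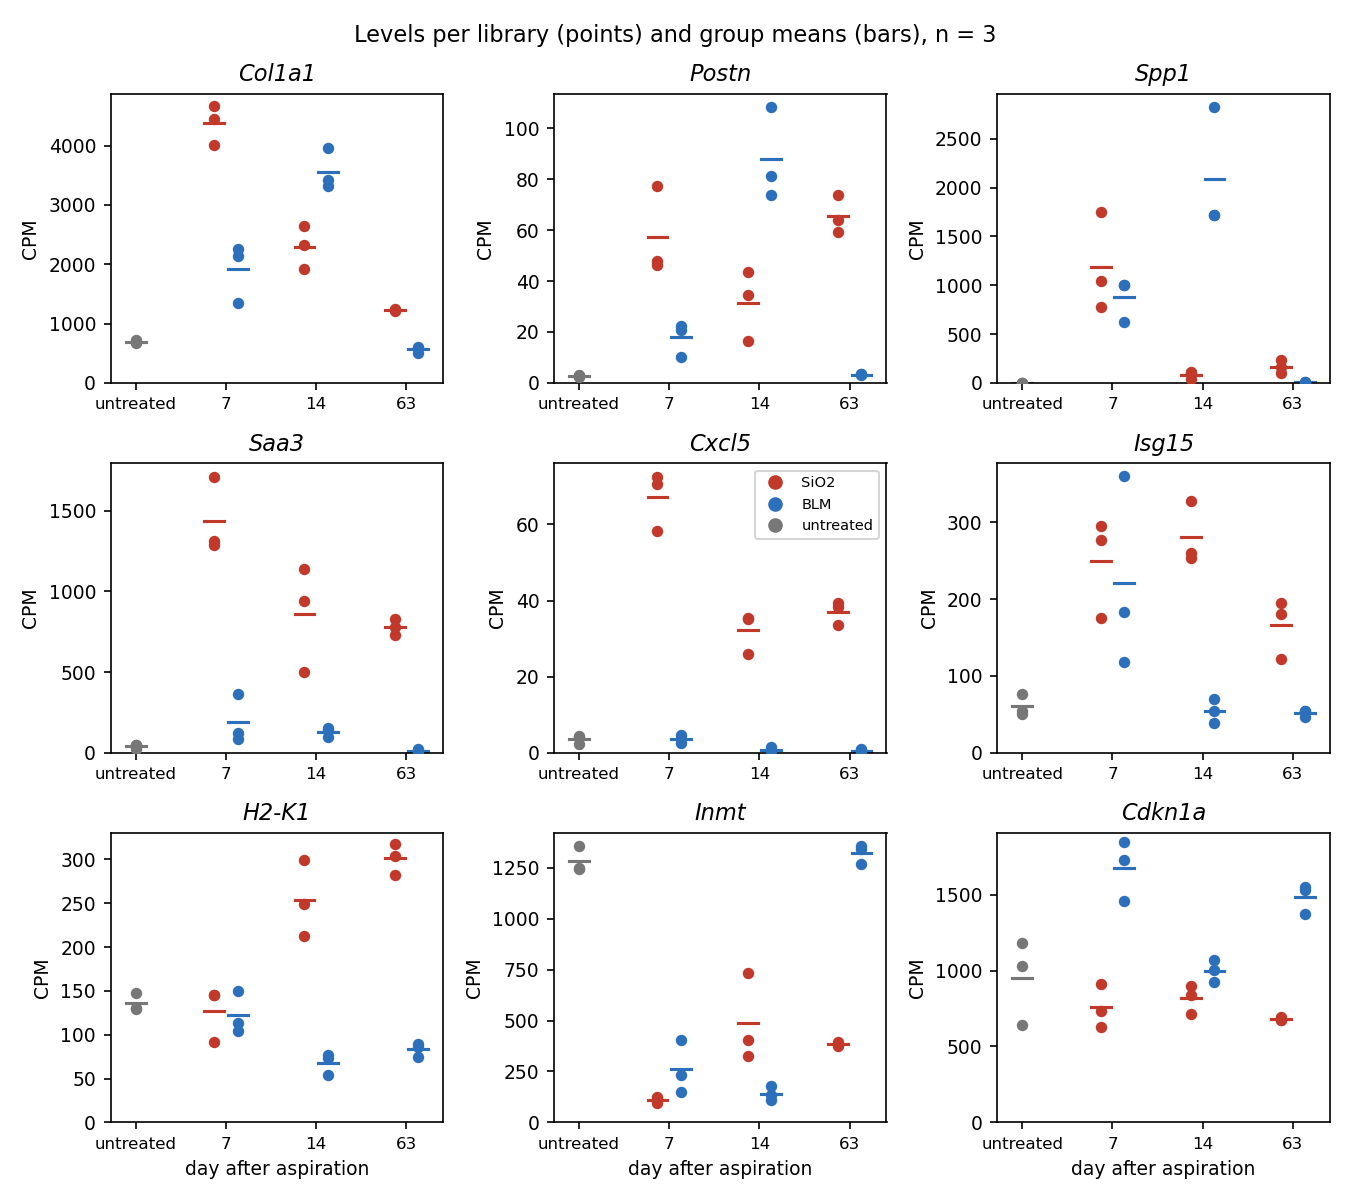
CPM of 9 genes in each library (points) with group means (bars, n = 3) over untreated and days 7, 14 and 63, SiO2 in red and BLM in blue. At day 63 the SiO2 libraries are above the BLM libraries for Col1a1, Postn, Spp1, Saa3, Cxcl5, Isg15 and H2-K1 and below them for Inmt and Cdkn1a; at day 14 the order of Col1a1, Postn, Spp1 and Inmt is the reverse.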

How the data were processed

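The deposited files hold counts, whole numbers of tags for each gene symbol in a single library, whose values show no normalization by the authors. Per the submitters' processing notes, Bowtie2 2.2.5 and the mm10 build were used; the annotation, counting program, filters and strand setting are not given in the sources used here, so overlapping genes are uncertain. Symbols were used as deposited, and positions are from GENCODE vM21. All 21 libraries (7 groups of 3) entered 1 edgeR 4.0.16 quasi-likelihood model (R 4.3.3) after filterByExpr and TMM scaling, with 14 residual degrees of freedom, and 11669 of 23204 symbols were tested. CPM refers to TMM-scaled library sizes. DESeq2 1.42.0, limma 3.58.1 (voom), other scalings and filters, the 6 libraries alone and each library left out were alternatives. Summed marker levels were compared by exact permutation (scipy 1.17.1). The pipeline was tested on simulated data, in 5 draws with 200 changed genes each. It recovered 26.3% of the 1.5-fold, 57.0% of the 2-fold and 91.2% of the 4-fold changes. Of the simulated calls 7.35% were false, above the nominal 5%. A gene that did not pass may therefore still differ.

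The gene lists and genes of interest were chosen with earlier results of these data known. The text names, first, 12 genes from each end of the log2 fold change among called genes whose groups did not overlap and whose higher mean was at least 10 CPM. It names up to 4 members per list by the smallest p, and always a set of 18 genes. Other named genes were chosen after their values were seen. Genes at 0 in a group were given as a lower bound against 3 counts over the group, and genes with 1 to 3 counts as a ratio with an exact 95% interval. The labels gave no batch, so no value could be recomputed within one.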

Additional observations from a re-analysis of the deposited data

Results flagged for a closer look

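For 16 of the 18 genes that were always named, the difference between SiO2 and BLM at day 63 differed from that at day 14. This was the interaction term of edgeR's quasi-likelihood model, which passed in 2160 of all tested genes (18.5%). The 18 genes were chosen with earlier results of these data known, so their share does not speak for genes at large. On the log2 scale the change of the difference to day 63 was 1.75 for Col1a1, 1.64 for Col1a2 and 1.43 for Col3a1. For the glycoproteins it was 2.56 for Fn1, 2.35 for Tnc, 5.81 for Postn, 8.87 for Spp1 and 5.86 for Cthrc1, for the inhibitor Timp1 2.86 and for Acta2 3.16. For the alveolar fibroblast genes it was -1.18 for Tcf21, -3.57 for Inmt and -2.04 for Npnt. It was 4.40 for Top2a, -0.84 for Cdkn1a and 3.22 for Saa3. The adjusted p ran up to 0.0038, in Cdkn1a. Cthrc1, a secreted collagen regulator, averaged 3.42 ± 0.284 CPM in SiO2 and 0.758 ± 0.0974 CPM in BLM at day 63, and 3.03 ± 0.843 CPM in SiO2 and 40.4 ± 3.07 CPM in BLM at day 14.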

How the results depend on the processing

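SiO2 against BLM gave 1065 genes higher and 751 lower. Without 1 library these were 808 to 925 higher and 520 to 592 lower. They were 896 and 591 with DESeq2, 1059 and 781 with limma-voom, and 930 and 908 with upper quartile scaling, which shifted the median of all genes by less than 0.1. The replicate numbers did not pair the libraries: deviations of same-numbered libraries correlated by -0.0066, 0.017 and -0.013, not every library correlated best with its own number, and the fit with a replicate block gave 1050 higher and 730 lower. Leaving out 1 library gave 795 to 1219 calls for BLM day 63 against untreated (393 to 614 higher, 372 to 605 lower), 2629 to 2938 for SiO2 day 63 against untreated and 1775 to 2093 for the change from day 14. No named gene that passed in the main or the alternative run changed direction. Sign changes of genes that passed in neither were not counted. Without 1 library, 8 to 19 of the 255 named genes lost their call, and the 255 include genes that had none to lose. No table varied the depth, and, as the labels mention no molecular identifiers, intervals cover counting error only.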

Other observations

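Lysosomal genes were higher in SiO2 than in BLM in 8 of 25 cases, 5 without SiO2 replicate 1 or BLM replicate 1 or 3. Each difference was small: the tetraspanin Cd63 averaged 298 ± 18.5 CPM in SiO2 and 194 ± 2.87 CPM in BLM, progranulin Grn 134 ± 10.2 CPM in SiO2 and 84.0 CPM in BLM, and cathepsin Ctsb 1111 ± 30.4 CPM in SiO2 and 838 ± 34.3 CPM in BLM. Of the cholesterol synthesis genes 5 of 20 were higher, led by Sqle (1.14 ± 0.19) and Cyp51 (0.91 ± 0.16), but 2 or 3 without SiO2 replicate 1 or BLM replicate 2 or 3. In the glycolysis and hypoxia list 5 of 22 were higher, 3 without BLM replicate 2, among them the glucose transporter Slc2a1 (0.57 ± 0.10) and the hypoxia-induced gene Ndrg1 (1.39 ± 0.15). Endoplasmic reticulum folding genes were higher in 5 of 22 cases, for example the disulfide isomerase Pdia4 (0.48 ± 0.12). The iron store ferritin, Fth1, averaged 1796 ± 72.4 CPM in SiO2 and 1073 ± 102 CPM in BLM.

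Mesenchymal transcription factors went both ways, with 7 of 29 higher and 5 lower, the 7 becoming 3 without SiO2 replicate 3 and 4 without BLM replicate 1. Prrx1 averaged 93.9 ± 5.90 CPM in SiO2 and 57.4 ± 1.26 CPM in BLM. Tbx2, a factor of lung mesenchyme, was lower at 433 ± 29.0 CPM in SiO2 and 743 ± 65.0 CPM in BLM, and Hoxb5 at 76.5 ± 4.87 CPM in SiO2 and 122 ± 13.7 CPM in BLM. Of 14 clock genes 4 were lower, including Per1 (-0.73 ± 0.17), and of 12 glucocorticoid-induced genes 3 were higher, 1 without BLM replicate 3. Fkbp5, which is in that list, averaged 32.1 ± 3.85 CPM in SiO2 and 15.7 ± 0.811 CPM in BLM.

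Summed markers of the other cell types were as follows. Epithelial markers were at 113, 90.8 and 104 CPM in SiO2 and at 98.6, 131 and 107 CPM in BLM, and overlapped. Endothelial markers were at 48.4, 40.5 and 51.6 CPM in SiO2 and at 37.1, 33.3 and 32.7 CPM in BLM. They did not overlap (two-sided exact permutation p = 0.1). Of the 5 endothelial markers tested, 2 were higher in SiO2, 0 were lower and 3 did not pass. The part of endothelial cells in the differences was not tested. Schwann cell and neuron markers averaged 16.7 ± 1.79 CPM in SiO2 and 16.1 ± 2.34 CPM in BLM, chondrocyte markers 15.3 ± 2.95 CPM in SiO2 and 9.25 ± 2.96 CPM in BLM, and erythroid markers 2.08 ± 3.60 CPM in SiO2 and 1.88 ± 1.71 CPM in BLM. Fibroblast markers averaged 42740 ± 1495 CPM in SiO2 and 37344 ± 2312 CPM in BLM, a sum that includes Col1a1, Col1a2 and Col3a1.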
